A study of Mus musculus with 6 samples.

Results

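The collagen genes of the mouse genome were examined in the organ of Corti, the strip of hair cells and supporting cells that detects sound in the inner ear. Members were all probe sets whose platform annotation gave a single gene symbol made of Col, a number, the letter a and a number. This selected 46 probe sets of 44 genes, among 35557 probe sets and 19938 named genes in the table. The rule used names alone and no measured value, but it was chosen with earlier results of these data known. Tissue was taken at postnatal day 15 (P15) from mice of a mixed C57BL/6J-129/Sv strain background. In 3 samples both copies of Pjvk, which encodes pejvakin, were inactivated (Pjvk-/-, called knockout), and in 3 samples the gene was intact (Pjvk+/+, called wild-type). The labels name no treatment, sex or number of animals per sample, and do not describe how the allele was made. Each sample was measured on its own array, and values are log2 signals. The number of arrays limits the precision.

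Collagens are the main structural proteins of extracellular matrix. Their alpha chains wind into triple helices, which assemble into fibrils, sheet-like networks, beaded filaments or links on the surface of other fibrils. In the cochlea, fibrils with type II, type IX and type XI collagen run through the acellular tectorial membrane above the hair cells, together with tectorin glycoproteins, and type IV networks form the basement membranes of epithelium and vessels. Type I collagen is the main protein of the surrounding bone, and variants of several cartilage and basement membrane collagens cause deafness. The 44 genes were grouped by these roles into 8 fibrillar genes, 6 cartilage or tectorial genes, 8 basement membrane genes and 22 others.

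The targeted gene was checked first. Pjvk read 4.42, 4.36 and 4.21 in the knockout and 4.75, 5.06 and 4.96 in the wild-type, without overlap, and differed by -0.59 (SE 0.09, adjusted p = 0.105). The signal was dim throughout, and the labels do not say whether the probe set lies within the altered part of the gene. The labelled tissue was then checked on marker genes. The outer hair cell gene Ocm read between 9.70 and 10.05, the supporting cell connexin gene Gjb2 between 10.90 and 11.14, and the tectorial membrane gene Ceacam16 between 11.55 and 11.80 over the 6 arrays. The 16 hair cell markers averaged between 7.32 and 7.45 per array and the 12 supporting cell markers between 8.67 and 8.74. The table holds no detection calls, so no marker can be called absent. Some genes of neighbouring tissues were bright too. The bone matrix gene Ibsp read between 9.92 and 10.89 and the spiral ligament gene Coch between 12.47 and 12.73. Each was the brightest of its list. The 7 measured bone markers averaged between 7.71 and 8.14 per array and the 10 spiral ligament markers between 9.92 and 10.16.

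Most collagen genes lay slightly higher in the knockout, and no single gene passed the test. Of 44 genes, 39 had a higher mean in the knockout and 5 a lower one, where 44.9% of all genes lay higher and 53.8% lower. With quantile normalization or cyclic loess these were 40 of 44, against 50.9% and 50.6% of all genes. Under both settings Col4a2 and Col9a3 turned from lower to higher and Col10a1 from higher to lower. The median log2 difference was 0.10, with an interquartile range from 0.07 to 0.16, against a median of -0.01 over all genes. None of the 44 was called by limma at an adjusted p under 0.05, a share that was 0.0351% over all genes, and none was called with an intensity trend and robust priors either. The smallest adjusted p was 0.209. In RNA from bulk tissue, a change in the number of cells of a type and a change in RNA per cell cannot be told apart.

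At an unadjusted p under 0.05, 9 of 44 collagen genes stood out (20.5%, against 12.4% of all genes). All 9 were higher, whereas over all genes 5.74% were higher and 6.66% lower at that p. The groups did not overlap for 8 collagen genes (18.2%), which is close to the 17.8% of all genes. All 8 were on the higher side, where 6.59% of all genes lay, and none on the lower side, where 11.3% lay. A difference of 1.2-fold or more was seen for 3 collagen genes (6.82%), Col1a1, Col12a1 and Col6a1, against 2.74% of all genes. The median size of the difference, regardless of sign, was 0.10 on the log2 scale for the collagen genes and 0.07 for all genes, and the median SE of both was 0.07.

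**Figure D1:**
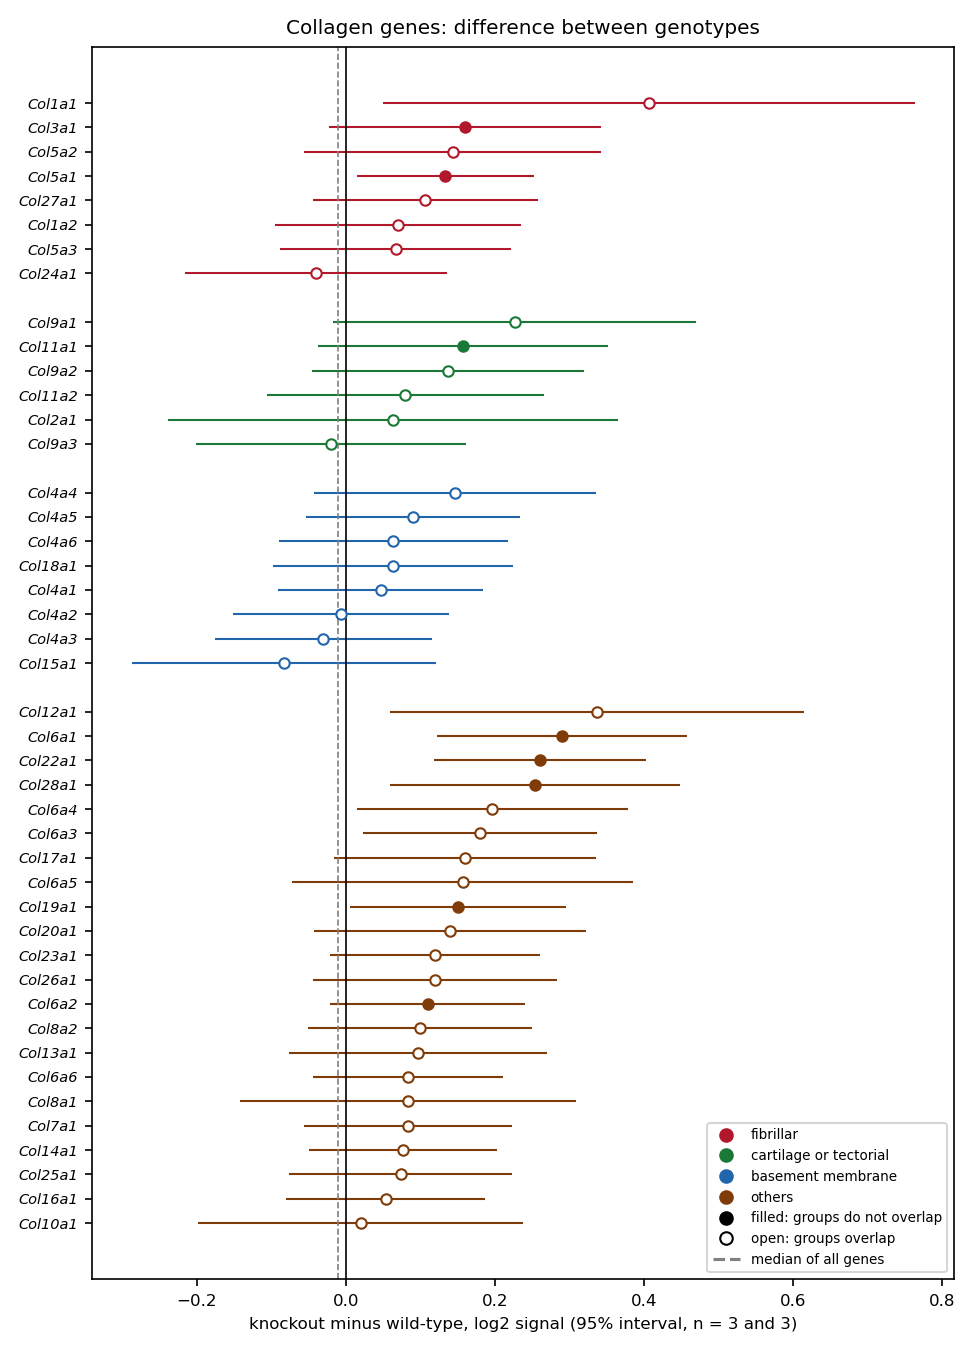
Difference between genotypes for each of the 44 collagen genes, as knockout minus wild-type log2 signal with its 95% interval from limma (3 arrays against 3), by class; filled points have groups that do not overlap, and the dashed line is the median of all genes. Points lie right of 0 for 39 genes, from 0.41 in Col1a1 down to -0.08 in Col15a1.

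The pattern rested unevenly on the arrays. After each gene was centred over the 6 arrays, the mean of the 44 genes stood in the knockout arrays at 0.12, 0.01 and 0.05 and in the wild-type arrays at -0.12, -0.01 and -0.05. Knockout replicate 1 and wild-type replicate 1 thus lay farthest apart, while both arrays numbered 2 were almost level. Among the 42 genes with a single highest array, that array was knockout replicate 1 in 20 and wild-type replicate 1 in none. Among the 43 genes with a single lowest array, it was wild-type replicate 1 in 25 and knockout replicate 1 in none. Over all genes the same arrays were highest in 15.9% and 19.6% and lowest in 16.2% and 21.2%. Without knockout replicate 1, 36 genes lay higher and 3 of 44 had an unadjusted p under 0.05, against 11.1% of all genes. Without wild-type replicate 1, 38 lay higher and 3 of 44 had such a p, against 8.9% of all genes. Leaving out both of these arrays was a setting chosen after the data had been seen. There 31 lay higher and 12 lower, with a median of 0.07. In that setting 2 of 44 had such a p, against 8.09% of all genes.

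**Figure D2:**
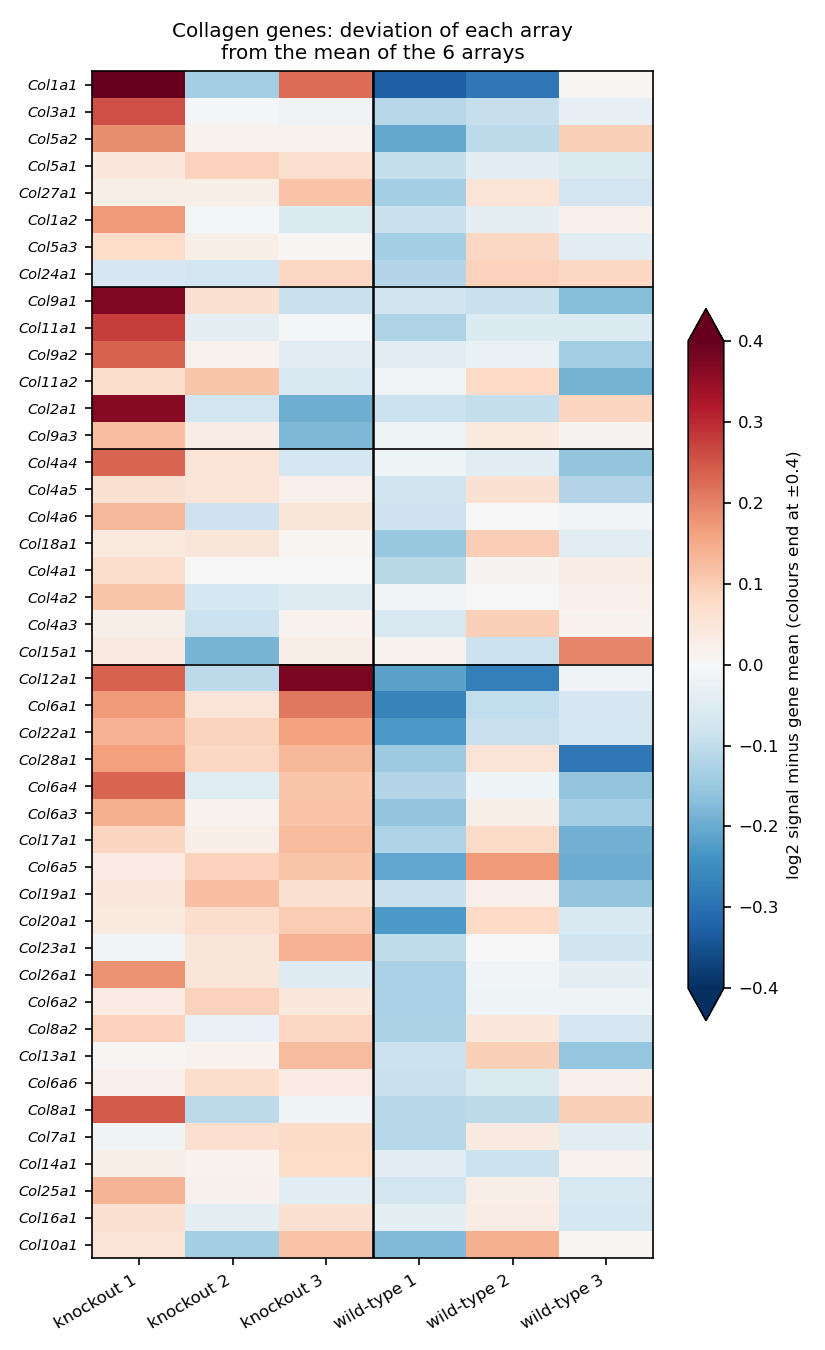
Heat map of the 44 collagen genes (lines, by class) in the 6 arrays (columns), coloured by the log2 signal minus the mean of the gene; colours end at ±0.4. Red prevails in knockout replicate 1, the highest array of 20 genes, and blue in wild-type replicate 1, the lowest array of 25.

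The sign of a difference followed signal level in this table, so the collagen genes were set beside genes of the same level. Bright genes lay lower in the knockout and dim genes higher, with a median of -0.04 in the brightest decile and 0.07 in decile 3. The 11 collagen genes in the brightest decile had a median of 0.08. The 7 in decile 7 had a median of 0.13, where all genes had -0.04, and the 9 in decile 5 had 0.14 against 0.01. Of the 7 deciles that held collagen genes, the exception was decile 3, whose single member, Col10a1, stood at 0.02.

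Type VI collagen forms beaded filaments around cells, built from the chains of Col6a1, Col6a2 and Col6a3, and the genes Col6a4, Col6a5 and Col6a6 encode chains that resemble Col6a3. All 6 genes lay higher, with a median of 0.17, and 3 had an unadjusted p under 0.05 (50%, against 12.4% of all genes). The bases before the start of the 3 genes of the classical heterotrimer are shown because these members share a trimer and lay on the same side in all 3 cases. They are the 250 bases upstream of the RefSeq start on GRCm38.p6, written 5′ to 3′ along the gene, and all 3 genes lie on the minus strand. For Col6a2, which has 2 starts in RefSeq, the window of the start farther upstream is shown. Capitals mark CTCCC or its reverse complement GGGAG and, in Col6a2 only, the GC box GGGCGG read as CCGCCC.

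Col6a1, chr10:76726045-76726294: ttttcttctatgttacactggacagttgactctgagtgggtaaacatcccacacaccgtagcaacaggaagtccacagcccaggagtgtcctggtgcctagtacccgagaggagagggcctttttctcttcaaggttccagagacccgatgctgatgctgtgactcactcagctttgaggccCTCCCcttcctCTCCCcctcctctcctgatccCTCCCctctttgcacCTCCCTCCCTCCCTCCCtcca

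Col6a2, chr10:76623631-76623880: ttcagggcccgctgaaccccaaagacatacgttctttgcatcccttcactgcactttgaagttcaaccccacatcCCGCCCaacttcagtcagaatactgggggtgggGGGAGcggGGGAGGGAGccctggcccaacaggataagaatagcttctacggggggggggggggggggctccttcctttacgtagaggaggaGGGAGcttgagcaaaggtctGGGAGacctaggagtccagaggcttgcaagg

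Col6a3, chr1:90843972-90844221: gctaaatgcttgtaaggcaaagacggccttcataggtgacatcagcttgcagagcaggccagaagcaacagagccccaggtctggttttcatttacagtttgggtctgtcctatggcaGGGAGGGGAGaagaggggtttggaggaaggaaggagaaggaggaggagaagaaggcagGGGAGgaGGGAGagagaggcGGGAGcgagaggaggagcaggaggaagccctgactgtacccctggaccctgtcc

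CTCCC occurred on either strand 7 times before Col6a1, where the last 4 copies overlap by their end bases next to the start. It occurred 5 times each in the windows shown for Col6a2 and Col6a3. The window of the other Col6a2 start held 4 copies and 3 GC boxes, against 5 and 1 in the window shown. It is a common word: 65.1% of all 32851 RefSeq start windows of this length and 30 of 38 collagen windows (78.9%) held at least 1 copy. This word was chosen after the sequences had been seen. The GC box was found in 57.9% of collagen windows and 32.7% of all windows, CCAAT in 34.2% and 33.8%, and TATAAA in 13.2% and 12.4%, each on both strands. RefSeq start windows were matched for 35 of the 44 genes. A match describes the letters and names no factor at work.

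Col6a1 read 8.01, 7.89 and 8.05 in the knockout and 7.57, 7.74 and 7.77 in the wild-type. Every knockout value lay above every wild-type value. The difference was 0.29 (SE 0.07), or 1.22-fold, with an adjusted p of 0.225 in limma, and an exact permutation test (two-sided) gave p = 0.1, which is the lowest that 3 against 3 arrays can reach. With Y-linked signal as covariate the difference was 0.12. Mean Y-linked signal did not overlap between the genotypes, so it and genotype cannot be told apart in values under this covariate. Col6a2, the partner of Col6a1, read 7.81, 7.87 and 7.82 against 7.65, 7.76 and 7.76. The groups were again separate, but the difference was smaller, 0.11 (SE 0.06, adjusted p = 0.457), and 0.03 with that covariate. Col6a3, the longest chain of the trimer, read 7.17, 7.04 and 7.14 against 6.87, 7.05 and 6.89. There wild-type replicate 2 reached into the knockout range, and the difference was 0.18 (SE 0.07, adjusted p = 0.355). Whether the 3 chains differ from each other in their response was not tested.

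Among the Col6a3-like chains, Col6a4 read 6.41, 6.13 and 6.29 in the knockout and 6.06, 6.16 and 6.02 in the wild-type. The groups overlapped at knockout replicate 2, and the difference was 0.20 (SE 0.08, adjusted p = 0.376), and 0.13 without knockout replicate 1. Col6a5 and Col6a6 each had 2 probe sets, of which the brighter was tested. For Col6a5 it differed by 0.16 (SE 0.10) and the dimmer by 0.03 (SE 0.18). For Col6a6 it differed by 0.08 (SE 0.06), while the dimmer had equal means of 5.49. The brighter probe sets had adjusted p-values of 0.535 for Col6a5 and 0.551 for Col6a6, and the groups overlapped in the brighter and dimmer ones alike. None of these probe sets therefore gives a sign of a difference beyond its spread.

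Fibril-associated collagens coat or bridge fibrils. Type IX genes are of this kind too but were placed in the cartilage or tectorial class, where Col9a3 lay lower at -0.02. All 6 genes of the fibril-associated sub-class used here lay higher, with a median of 0.145. Of these, 3 had an unadjusted p under 0.05 (50%, against 12.4% of all genes). Col22a1, a collagen of tissue junctions such as those between muscle and tendon, had the smallest p of the whole family. It read 7.18, 7.13 and 7.20 in the knockout and 6.81, 6.95 and 6.97 in the wild-type, without overlap. The difference was 0.26 (SE 0.06), just under 1.2-fold (adjusted p = 0.209). Under the alternatives it stayed between 0.13 and 0.29, with the lowest value when Y-linked signal was a covariate. It was too dim to be kept by the filter at the median.

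Col12a1, which encodes a large collagen on the surface of type I fibrils, read 7.95, 7.61 and 8.09 against 7.50, 7.44 and 7.70. Knockout replicate 2 lay below wild-type replicate 3, so the groups overlapped. The difference was 0.34 (SE 0.12), or 1.26-fold, and its adjusted p was 0.345. With Y-linked signal as covariate the difference was 0.11. Col19a1 read 6.72, 6.80 and 6.74 against 6.59, 6.70 and 6.52, separate by a narrow margin, with a difference of 0.15 (SE 0.06, adjusted p = 0.390). The remaining 3 genes were Col20a1 at 0.14 (SE 0.08), Col14a1, which encodes a fibril-associated collagen of dense connective tissue, at 0.08 (SE 0.06) and Col16a1 at 0.05 (SE 0.06). In all 3 the groups overlapped, and with Y-linked signal as covariate Col20a1 stood at 9e-04.

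**Figure D3:**
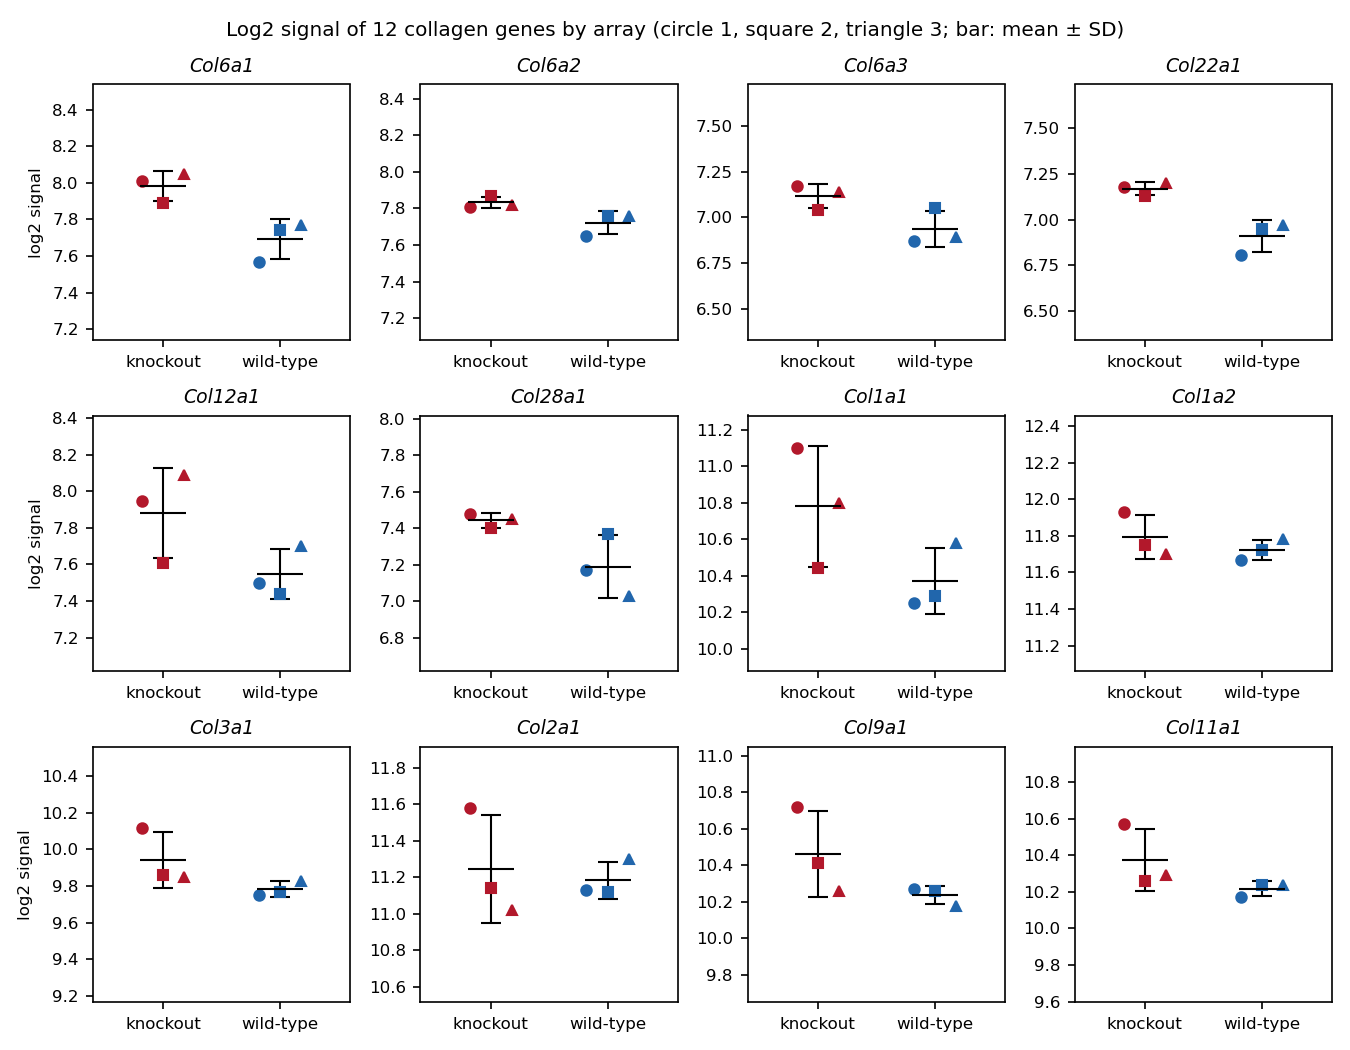
Log2 signal of 12 collagen genes in the 3 knockout (red) and 3 wild-type (blue) arrays, with symbols for the replicate number, the mean as a line and the SD as a bar; each panel spans the same range of 1.4 log2 units. The groups are separate in Col6a1, Col6a2, Col22a1, Col28a1, Col3a1 and Col11a1 and overlap in the other panels.

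The fibrillar genes encode the chains of the thick and thin fibrils of connective tissue. Of 8 genes 7 lay higher, with a median of 0.12, and 2 had an unadjusted p under 0.05 (25%, against 12.4% of all genes). The median was 0.0792 without knockout replicate 1, 0.0708 without wild-type replicate 1, 0.0375 without both of these arrays and 0.0484 with Y-linked signal as covariate. Col1a1, which supplies the major chain of type I collagen, read 11.10, 10.44 and 10.80 in the knockout and 10.25, 10.29 and 10.58 in the wild-type. Its difference of 0.41 (SE 0.16) was the largest of the 44 genes, and so was its SE. Knockout replicate 2 lay within the wild-type range, the adjusted p was 0.357 and the exact permutation p was 0.2. Without knockout replicate 1 the difference was 0.25, and with Y-linked signal as covariate 0.23.

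Col1a2, whose chain joins that of Col1a1 in the same trimer, had a smaller difference. It read 11.93, 11.75 and 11.70 against 11.67, 11.72 and 11.78, a difference of 0.07 (SE 0.07, adjusted p = 0.701). Its 95% interval ran from -0.10 to 0.24. Only knockout replicate 1 stood above the wild-type arrays, and without it the difference was 0.002. With both arrays numbered 1 left out, Col1a2 turned to -0.03 and Col1a1 fell from 0.41 to 0.185. Whether Col1a1 and Col1a2 differ from each other in their response was not tested.

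Col3a1, a fibrillar collagen of vessels and soft tissue, read 10.12, 9.86 and 9.85 against 9.75, 9.77 and 9.83. The groups were separate, although knockout replicates 2 and 3 lay just above the highest wild-type array. The difference was 0.16 (SE 0.08, adjusted p = 0.441), and 0.07 without knockout replicate 1. Col5a1 and Col5a2 encode chains of type V collagen, which starts and limits the growth of type I fibrils. Col5a1 read 7.80, 7.85 and 7.82 against 7.66, 7.71 and 7.70, with little spread and no overlap, and differed by 0.13 (SE 0.05, adjusted p = 0.361). It lies on the chromosome of Pjvk, 345 measured genes away in gene order. Col9a3 and Col20a1 lie on that chromosome too, 1131 and 1143 measured genes away. Under the alternatives Col5a1 stayed between 0.10 and 0.175.

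Col5a2 differed by 0.14 (SE 0.09), but by -0.02 with Y-linked signal as covariate. The others of this class were Col27a1 at 0.11 (SE 0.07), Col5a3 at 0.07 (SE 0.07) and Col24a1 at -0.04 (SE 0.08). Col24a1, the lower member, read 6.92, 6.91 and 7.07 in the knockout against 6.87, 7.08 and 7.07, so the groups overlapped almost fully.

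The cartilage or tectorial genes encode the chains that build type II fibrils and their surface. Of 6 genes 5 lay higher, with a median of 0.11, and none had an unadjusted p under 0.05. The median was 0.0558 without knockout replicate 1, 0.185 without knockout replicate 3, 0.05 without both arrays numbered 1 and 0.229 with Y-linked signal as covariate. Col2a1, the gene of the type II chain, read 11.58, 11.14 and 11.02 in the knockout and 11.13, 11.12 and 11.30 in the wild-type. The difference was 0.06 (SE 0.13, adjusted p = 0.863). Knockout replicate 1 alone was high: without it the difference was -0.10.

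Type XI collagen sits in the core of type II fibrils. Col11a1 read 10.57, 10.26 and 10.29 against 10.17, 10.24 and 10.24, separate by a narrow margin, and differed by 0.16 (SE 0.09, adjusted p = 0.471). Without knockout replicate 1 its difference was 0.06. Col11a2, whose variants cause a non-syndromic deafness, read 9.94, 9.98 and 9.81 against 9.86, 9.95 and 9.68. The groups overlapped, and the difference was 0.08 (SE 0.08, adjusted p = 0.698). For Col11a2 it was 0.005 without wild-type replicate 3, 0.045 without knockout replicate 2 and 0.267 with Y-linked signal as covariate.

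Type IX collagen decorates type II fibrils and is built from the chains of Col9a1, Col9a2 and Col9a3. Col9a1 read 10.72, 10.41 and 10.26 against 10.27, 10.26 and 10.18, a difference of 0.23 (SE 0.11, adjusted p = 0.419), and 0.10 without knockout replicate 1. Col9a2 read 9.51, 9.29 and 9.23 against 9.23, 9.25 and 9.14, a difference of 0.14 (SE 0.08, adjusted p = 0.501), and 0.05 without that array. Col9a3 read 9.39, 9.30 and 9.09 against 9.25, 9.31 and 9.28, a difference of -0.02 (SE 0.08, adjusted p = 0.934). In all 3 genes knockout replicate 1 was the highest knockout array and replicate 3 the lowest, and the spread was wider in the knockout, with SDs of 0.15 to 0.23 in the knockout and 0.03 to 0.06 in the wild-type. With Y-linked signal as covariate Col9a1 stood at 0.445 and Col9a2 at 0.29.

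Basement membrane genes had the smallest median of the 4 classes. Of 8 genes 5 lay higher and 3 lower, with a median of 0.055, and none was separate between the groups or had an unadjusted p under 0.05. The median was 0.0192 without knockout replicate 1, 0.0033 without wild-type replicate 1, -0.015 without both and 0.0095 with Y-linked signal as covariate. Col4a1 and Col4a2, whose chains form the network common to most basement membranes, had small differences. Col4a1 read 8.38, 8.31 and 8.31 in the knockout and 8.20, 8.32 and 8.34 in the wild-type. It differed by 0.05 with a 95% interval from -0.09 to 0.18. Col4a2 read 8.61, 8.43 and 8.45 against 8.49, 8.50 and 8.52, a difference of -0.01 with an interval from -0.15 to 0.14. Both intervals include the difference of 0.11 seen for Col6a2.

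Col4a3, Col4a4 and Col4a5 encode the network whose loss causes Alport syndrome, a disease of kidney and hearing. Col4a3 read 7.42, 7.31 and 7.41 against 7.33, 7.49 and 7.41, a difference of -0.03 (SE 0.06, adjusted p = 0.866). Col4a4 differed by 0.15 (SE 0.08, adjusted p = 0.487), by 0.0667 without knockout replicate 1 and by 0.35 with Y-linked signal as covariate. The X-linked Col4a5 differed by 0.09 (SE 0.06, adjusted p = 0.565). Col4a6, also X-linked, differed by 0.06 (SE 0.07). Signal of the 3 measured Y-linked genes averaged less in the knockout, with list means of 7.39 to 7.58 against 7.65 to 8.05. Their part in the values of the X-linked genes was not tested beyond the covariate, under which Col4a5 stood at 0.14 and Col4a6 at 0.03. The list means did not overlap between the genotypes, so Y-linked signal and genotype cannot be told apart under the covariate.

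Col15a1 and Col18a1 encode multiplexins, collagens of basement membrane zones that carry sugar chains. Col15a1 read 8.34, 8.12 and 8.33 against 8.32, 8.22 and 8.50, and its difference of -0.08 (SE 0.09, adjusted p = 0.715) was the lowest of the 44. Col18a1 differed by 0.06 (SE 0.07).

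The other genes all lay higher as well. Col28a1, which encodes a collagen related to type VI and known from peripheral nerve, read 7.48, 7.40 and 7.45 in the knockout and 7.17, 7.37 and 7.03 in the wild-type. The groups were separate, with wild-type replicate 2 close to the knockout. The difference was 0.25 (SE 0.09), or 1.19-fold, with an adjusted p of 0.323. Col26a1 differed by 0.12 (SE 0.07) and Col7a1, the gene of the anchoring fibrils of skin, by 0.08 (SE 0.06).

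The 4 genes of transmembrane collagens ran from 0.07 in Col25a1 over 0.10 in Col13a1 and 0.12 in Col23a1 to 0.16 in Col17a1, with SEs of 0.06 to 0.08. The short-chain network genes were Col8a1, a collagen gene of vessels and of Descemet's membrane, at 0.08 (SE 0.10), Col8a2 at 0.10 (SE 0.07) and Col10a1, the marker of hypertrophic cartilage, at 0.02 (SE 0.10). In all 7 the groups overlapped. Col8a1 turned to -0.02 and Col10a1 to -0.002 without knockout replicate 1.

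Genes that process, bind or degrade collagen did not share the upward tilt throughout. Of 30 measured collagen-modifying genes (hydroxylases, cross-linking enzymes, chaperones and procollagen proteases) 11 lay higher and 17 lower, with a median of -0.03. None was called, 1 was higher and 2 were lower at an unadjusted p under 0.05 (10%, against 12.4% of all genes). The higher gene was the lysyl oxidase family member Loxl4 at 0.29 (SE 0.08, adjusted p = 0.273). The lower genes were the prolyl hydroxylase genes P3h2 at -0.16 (SE 0.05, adjusted p = 0.317) and P4ha2 at -0.15 (SE 0.05, adjusted p = 0.342). Of 17 proteoglycan and glycoprotein genes of the fibril surface 7 lay higher and 10 lower, with a median of -0.02 and none at such a p.

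Of 11 collagen receptor genes 8 lay higher, with a median of 0.02 and none at that p. The receptor kinase gene Ddr1 read 8.27, 8.30 and 8.37 against 8.19, 8.20 and 8.19, a difference of 0.12 (SE 0.05, adjusted p = 0.409). Of 12 genes for collagenases, gelatinases and their inhibitors 8 lay higher, with a median of 0.03. Mmp8, a dim neutrophil collagenase gene, was the 1 member at an unadjusted p under 0.05 (8.33%, against 12.4% of all genes), at -0.22 (SE 0.07, adjusted p = 0.292).

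The glycoproteins that share the tectorial membrane with collagens lay higher in 5 of 6 genes, with a median of 0.205. Tectb, the gene of beta-tectorin, had the smallest adjusted p of these lists' higher genes, 0.0923. The lower gene, Ceacam16, stood at -0.10 (SE 0.06) without overlap and was picked out after its value was seen. The groups were separate for 3 higher genes and this 1 lower gene (66.7%, against 17.8% of all genes). The mean of the 6 genes deviated by 0.11, 0.08 and 0.06 in the knockout arrays and by -0.17, -0.03 and -0.05 in the wild-type arrays. The cartilage or tectorial collagens deviated by 0.24, 0.02 and -0.10 against -0.06, -0.02 and -0.08. The glycoprotein means thus did not overlap between the genotypes, while the collagen means of this class did. The means of all collagen genes and of the 22 others did not overlap either. Nor did those of endothelial markers and of smooth muscle and pericyte markers, which lay lower in the knockout.

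Markers of other tissues in the dissection are given beside these values. All 7 measured bone markers lay higher in the knockout, with a median of 0.11 and none at an unadjusted p under 0.05. Their mean level was 7.71 to 8.14 in the knockout and 7.72 to 7.86 in the wild-type. The high end was knockout replicate 1, which deviated by 0.31 and in which Ibsp read 10.89 against 9.92 to 10.31 in the other arrays. In that array Col1a1, Col2a1, Col9a1 and Col11a1 were at their highest too, among the 20 collagen genes highest there. The same array was also the highest for the means of fibroblast markers at 0.12, tectorial membrane glycoproteins at 0.11 and collagen-modifying genes at 0.09. For cartilage, skeletal muscle and spiral ligament markers another array was the highest. The part of bone RNA in the collagen values was not tested. Without knockout replicate 1, 36 of 44 collagen genes lay higher, with a median of 0.08, and 3 rather than 9 had an unadjusted p under 0.05. The share of all genes at that p was 11.1% without this array and 12.4% with all 6.

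Of 10 fibroblast markers 8 lay higher, with a median of 0.05 and levels of 7.77 to 7.94 against 7.76 to 7.83, and Dcn, the brightest of them, differed by -0.02. Of 16 skeletal muscle markers 13 lay higher, with a median of 0.15 and levels of 6.20 to 6.35 against 6.15 to 6.27. At an unadjusted p under 0.05, 8 were higher and 2 lower (62.5%, against 12.4% of all genes). Ttn was the 1 called gene of the list, fell by 0.95 on the log2 scale and is a neighbour of Pjvk on its chromosome. The muscle mean was highest in knockout replicate 2, at 0.13, where the collagen mean was 0.01. Their part in the collagen result was not tested.

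Cartilage markers were split, 5 of 10 higher, with a median of -0.03 and levels of 8.002 to 8.129 against 8.066 to 8.133. Lists of other collagen-bearing cells lay lower: 9 of 10 spiral ligament fibrocyte markers (median -0.07, levels 9.92 to 10.14 against 10.12 to 10.16), 9 of 10 endothelial markers (median -0.08, 8.02 to 8.10 against 8.13 to 8.17) and 8 of 10 smooth muscle and pericyte markers (median -0.12, 7.65 to 7.80 against 7.82 to 7.90). At an unadjusted p under 0.05, which 12.4% of all genes had, 3 smooth muscle and pericyte markers (30%) and 1 endothelial marker (10%) were lower. None of either list was higher, and 1 fibroblast marker (10%) was higher. No bone, cartilage or spiral ligament marker had such a p. Of 5 Schwann cell markers 3 lay higher and 1 lower, with a median of 0.02 and levels of 10.24 to 10.39 against 10.27 to 10.32, and 1 was lower at that p (20%). Hair cell markers lay higher in 9 of 16, with a median of 0.05. Of these 16, 3 were higher and 1 was lower at an unadjusted p under 0.05 (25%), and the groups were separate for 7 (43.8%, against 17.8% of all genes). Supporting cell markers lay higher in 7 of 12, with a median of 0.04, while 3 were lower (25%) and none higher at that p. None of these marker genes other than Ttn was called.

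**Figure D4:**
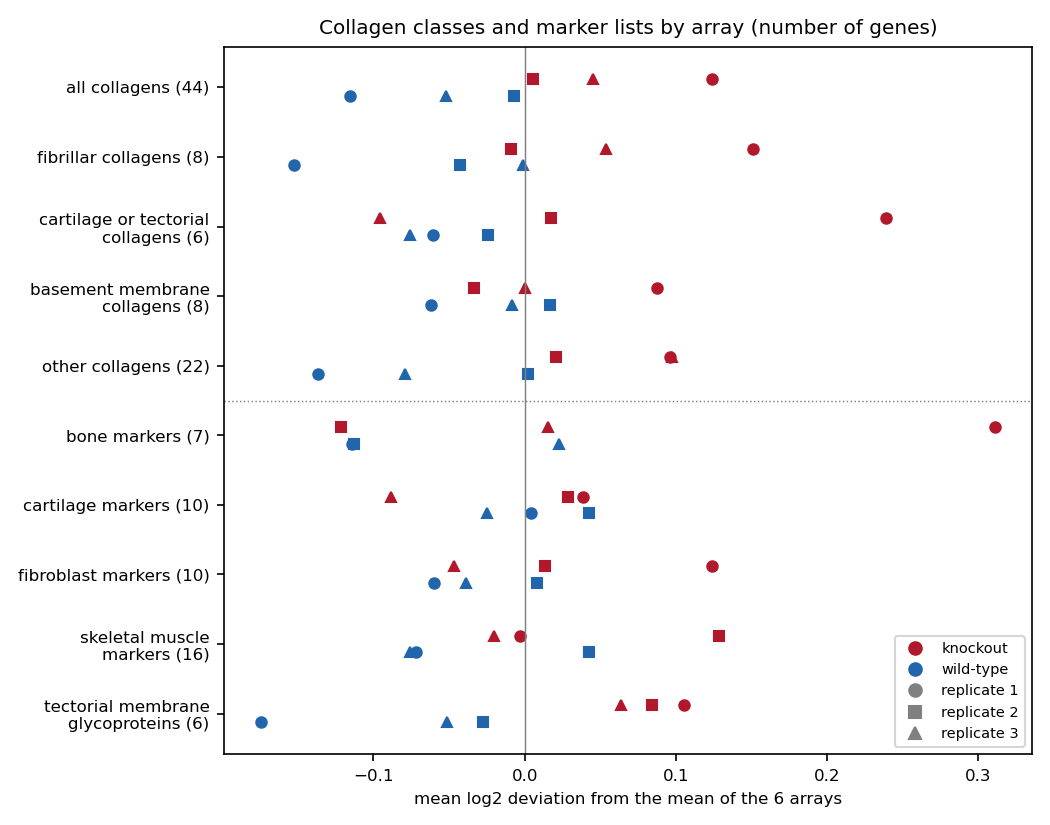
Mean log2 deviation of each array from the mean of the 6 arrays, for all collagen genes, their 4 classes and 5 lists of other genes, with the number of genes in brackets; red is knockout, blue wild-type, and the symbol gives the replicate number. Knockout replicate 1 is highest for all collagens at 0.12 and for bone markers at 0.31. The means of the genotypes do not overlap for all collagens, other collagens and tectorial membrane glycoproteins.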

How the data were processed

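Total RNA of 6 organ of Corti samples was measured on an Affymetrix mouse gene ST array, per the labels' protocols. The authors deposited log2 values per probe set. Affymetrix Expression Console is named in the submitters' processing notes. The summarization, the normalization and the build were not given in the sources used here. Array medians lay between 6.66 and 6.69, and values were used as deposited. Probe sets with 1 symbol in the platform annotation (21789 of 35557) were named, with symbols updated through gene identifiers, and the brightest probe set of a gene was kept (19938 genes). Knockout and wild-type were compared across all genes by lmFit and eBayes of limma (version 3.58.1, R 4.3.3), with Benjamini-Hochberg adjustment over all genes and a call at an adjusted p under 0.05. All adjusted p-values are from this fit. The fit was also run on simulated data, but the simulated differences were larger than that of any collagen gene. That run therefore says nothing about finding differences of the size seen here. Lists were described by counts and medians only. The replicate numbers were checked: deviations of same-numbered arrays correlated at 0.08, 0.02 and -0.01, so the numbers were not taken as pairs. Values per array are given for 14 listed genes of types I, II, III, IV, VI, IX and XI, and in each direction for up to 6 further genes of smallest unadjusted p. Up to 4 genes of each other list, and markers for the tissue check, could be named. The members and lists were chosen with earlier results of these data known. The labels do not say that samples came from separate animals, so the p-values may rest on technical spread alone. Start windows came from RefSeq on GRCm38.p6. The alternatives were filters on dim genes, other normalizations, other uses of probe sets, an intensity trend, the replicate block, Y-linked signal as covariate and leaving out arrays.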

Additional observations from a re-analysis of the deposited data

How the results depend on the processing

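No collagen gene was called under any of the 17 alternatives, and the median of the collagen genes tested (44, or 31 with the filter at the median) stayed above 0, from 0.07 to 0.14. The count of collagen genes higher, 39, ran from 36 to 41 with 1 array left out, was 37 with Y-linked signal as covariate and 31 without both arrays numbered 1. Collagen genes at an unadjusted p under 0.05 numbered 9 in the main analysis, 15 with quantile normalization, 15 with cyclic loess (chosen after the data had been seen), 3 with the Y-linked covariate, 2 without both arrays numbered 1, and 3 to 13 with 1 array left out. Collagen genes with separate groups numbered 8 in the main analysis, where 17.8% of all genes were separate. They numbered 16 with quantile normalization, 16 with cyclic loess and 13 without both arrays numbered 1. With 1 array left out they numbered 8 to 22, and fewer arrays make separation easier. The share of all genes with separate groups was not counted under the alternatives. Over all genes the 7 calls became 20 and 45 when genes below the 25th percentile or below the median were left out, 112 with an intensity trend and robust priors, 0 with the covariate, 0 without both arrays numbered 1, and 2 to 6 with 1 array left out. With the replicate block 1 gene was called over all genes and no collagen gene was called. There 7 collagen genes had an unadjusted p under 0.05, against 11.7% of all genes. The block moved no other collagen count. The causes were not tested.

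Of the 44 genes, 32 kept their sign under every alternative. Without both arrays numbered 1, the basement membrane median turned to -0.015, Col1a2 to -0.025, Col5a3 to -0.005, Col4a1 to -0.02, Col4a6 to -0.01, Col2a1 to -0.13, Col8a1 to -0.055 and Col10a1 to -0.085. With the covariate, Col5a2 turned to -0.0246, Col4a1 to -0.0328, Col18a1 to -4e-04 and Col10a1 to -0.141, and the other way Col4a2 to 0.0193 and Col9a3 to 0.0653. Quantile normalization turned Col4a2 to 0.0497, Col9a3 to 0.0336 and Col10a1 to -0.0433, cyclic loess turned them to 0.0465, 0.0324 and -0.0356, and median centring turned Col4a2 to 0.005. With 1 array left out, Col4a2 ran from -0.0633 to 0.0267, Col4a3 from -0.07 to 0.01, Col2a1 from -0.10 to 0.18, Col9a3 from -0.085 to 0.065, Col8a1 from -0.0183 to 0.157 and Col10a1 from -0.0633 to 0.0967.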
